A study of Mus musculus with 16 samples.

Results

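The type I interferon response genes described here are 50 genes chosen by name: the 2 subunits of the interferon-α/β receptor, 4 transcription factors of the pathway, and genes that interferon is known to induce. All 50 were found among the 53850 genes of the deposited table, and all 50 passed the filter on low values, a normalised read count of at least 10 in at least 4 libraries. The libraries came from microglia, the resident macrophages of the brain, sorted from the cortex of C57BL/6J mice after 1 week on chow. PLX3397 is an inhibitor of the colony-stimulating factor 1 receptor (CSF1R), on which microglia depend for survival, so the cells sequenced from treated mice were those still present after drug. Males on PLX3397 chow were set against males on control chow, and females on PLX3397 chow against females on control chow, with 4 libraries in each of the 4 groups. The series was made to follow a difference between the sexes in how PLX3397 depletes microglia. All groups shared the strain, the brain region, the sort and the time on chow. The drug dose, the age in days, the sorting gate and whether each sample was a separate animal are not given in the sources used here, so the p-values measure the spread between these samples, which may be technical. In bulk RNA from sorted cells, fewer cells of a type and less RNA per cell cannot be told apart.

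Type I interferons bind a receptor made of Ifnar1 and Ifnar2, whose kinases Jak1 and Tyk2 phosphorylate STAT proteins, Stat2 among them. These join Irf9 and bind the interferon-stimulated response element in the promoters of induced genes, whose products sense or degrade foreign nucleic acid, block viral entry and translation, or feed back on the pathway. In the brain, microglia are among the cells that make and answer type I interferon, and a subset of them with high interferon-induced genes is known from ageing and from disease models.

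To show what the members share at the sequence level, promoters of 6 of them are printed: Ifit3, Isg15, Oas1a and Ifitm3 are induced genes with the core of the response element, Gbp7 is a member with the same core whose level fell, and Slfn2 is a member without it whose level rose. Each runs 5′ to 3′ on the gene's strand and covers 250 bases before to 50 bases after the start site. The sequences are RefSeq's on build GRCm38.p6, and the files themselves were made on another build. Capitals mark matches to GAAANNGAAA on either strand, and overlapping matches are written as a single run.
Ifit3 (chr19:34583279-34583578, plus strand): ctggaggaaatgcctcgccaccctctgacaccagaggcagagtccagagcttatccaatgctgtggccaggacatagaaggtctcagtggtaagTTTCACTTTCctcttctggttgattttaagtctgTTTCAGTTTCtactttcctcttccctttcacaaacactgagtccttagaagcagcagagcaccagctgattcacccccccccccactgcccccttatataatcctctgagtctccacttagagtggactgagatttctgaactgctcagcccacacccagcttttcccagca
Isg15 (chr4:156200769-156201068, minus strand): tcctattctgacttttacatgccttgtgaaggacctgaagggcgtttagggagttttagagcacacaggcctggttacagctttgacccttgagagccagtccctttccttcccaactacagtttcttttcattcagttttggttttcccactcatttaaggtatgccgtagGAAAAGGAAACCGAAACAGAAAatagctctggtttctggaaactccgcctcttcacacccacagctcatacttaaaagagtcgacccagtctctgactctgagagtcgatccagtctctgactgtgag
Oas1a (chr5:120907476-120907775, minus strand): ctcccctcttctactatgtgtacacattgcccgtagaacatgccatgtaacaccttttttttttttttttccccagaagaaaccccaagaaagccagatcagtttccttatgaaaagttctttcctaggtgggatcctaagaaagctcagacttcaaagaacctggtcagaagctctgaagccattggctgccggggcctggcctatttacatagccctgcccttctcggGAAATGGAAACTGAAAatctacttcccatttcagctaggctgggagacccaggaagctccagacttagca
Ifitm3 (chr7:141010695-141010994, minus strand): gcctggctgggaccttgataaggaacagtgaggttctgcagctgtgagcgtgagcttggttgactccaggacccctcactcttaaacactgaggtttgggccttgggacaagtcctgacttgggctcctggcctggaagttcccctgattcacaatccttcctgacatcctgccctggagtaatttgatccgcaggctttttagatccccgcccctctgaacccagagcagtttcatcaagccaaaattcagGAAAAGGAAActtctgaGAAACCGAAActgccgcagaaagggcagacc
Gbp7 (chr3:142530086-142530385, plus strand): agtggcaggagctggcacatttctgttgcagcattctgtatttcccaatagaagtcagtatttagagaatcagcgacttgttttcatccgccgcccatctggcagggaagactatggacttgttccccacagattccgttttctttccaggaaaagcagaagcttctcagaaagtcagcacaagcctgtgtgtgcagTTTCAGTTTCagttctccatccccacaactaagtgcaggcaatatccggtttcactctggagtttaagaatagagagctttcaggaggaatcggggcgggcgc
Slfn2 (chr11:83064862-83065161, plus strand): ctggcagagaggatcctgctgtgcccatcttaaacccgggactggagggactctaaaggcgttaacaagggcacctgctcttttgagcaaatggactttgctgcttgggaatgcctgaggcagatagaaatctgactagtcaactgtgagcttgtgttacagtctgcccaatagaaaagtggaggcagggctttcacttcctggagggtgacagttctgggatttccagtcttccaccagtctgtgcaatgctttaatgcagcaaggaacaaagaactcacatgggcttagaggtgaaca

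Counted from the start site, the first base of a match lay at -156 and -122 in Ifit3, at -78, -72 and -66 in Isg15, at -20 and -14 in Oas1a, at 2 and 19 in Ifitm3, and at -53 in Gbp7. In Isg15 and Oas1a the matches overlapped. The RefSeq table held promoters for 39 of the 50 members. Of these, 22 (56.4%) had a match in at least 1 promoter, against 477 of the 12035 tested genes with a promoter there (3.96%) and 1079 of all 27025 genes in the table (3.99%). The shorter motif TTCNNNGAA, which reads the same on both strands and is the core bound by STAT dimers, was in 12 of the 39 members (30.8%), against 8.58% of tested genes and 9.55% of all genes. Matches to the 2 motifs may overlap. Among members that changed on PLX3397 in at least 1 sex, 11 of 18 (61.1%) had GAAANNGAAA, and among members called in neither sex 11 of 21 (52.4%) had it. The members were named as interferon-induced genes, so these shares describe them and test nothing.

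The 16 libraries held 32600000 to 44200000 normalised counts each, which the spacing of low values puts at about 22300000 to 77700000 reads. Microglia markers were abundant throughout, and their summed level was 1060000 to 1500000 in males on PLX3397 against 2340000 to 2520000 in control males, and 1690000 to 1920000 in females on PLX3397 against 2230000 to 2740000 in control females, with 10 of 10 markers lower in males and 8 of 10 in females. The 11 neutrophil markers summed to 10696 to 75098 in males on PLX3397 against 531 to 3668 in control males, and to 1046 to 3485 in females on PLX3397 against 203 to 271 in control females. Of them 9 were higher in males and 6 in females, and 7, among them S100a8, S100a9 and Ly6g, were at 0 in every control female. Monocyte markers summed to 1020.4 to 6250.1 in males on PLX3397 and 455 to 757 in control males. The monocyte sum was between 455 and 1048.4 in females given PLX3397, against 533 to 674 in control females, and of the 6 tested 1 was higher in males and none passed in females. Border-associated macrophage markers were lower, 7 of 10 in males and 5 of 10 in females. They summed to 19476 to 24002 in males on PLX3397 against 25959 to 29256 in control males, and to 19548 to 23045.5 in females on PLX3397 against 27360.2 to 33886 in control females, and Lyve1 and Cd209f were at 0 in every male on PLX3397. Male PLX3397 replicate 3 stood apart with the neutrophil sum of 75098, against 10696 to 18192 in the other males on drug. Male control replicate 4 stood apart with 516 for Xist, the non-coding RNA of X inactivation, against 14.7 to 31.4 in the other control males and 5542 to 10451 in females, while its Y-linked genes were at male levels. Marker counts here are of limma calls at an adjusted p under 0.05. Of all genes tested, 7.52% were called lower and 4.16% higher in males, and 2.67% each way in females. The part of neutrophil RNA and of lower microglia and border-associated macrophage markers in the results was not tested. Counts of members are therefore also given without both of these libraries.

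**Figure D1:**
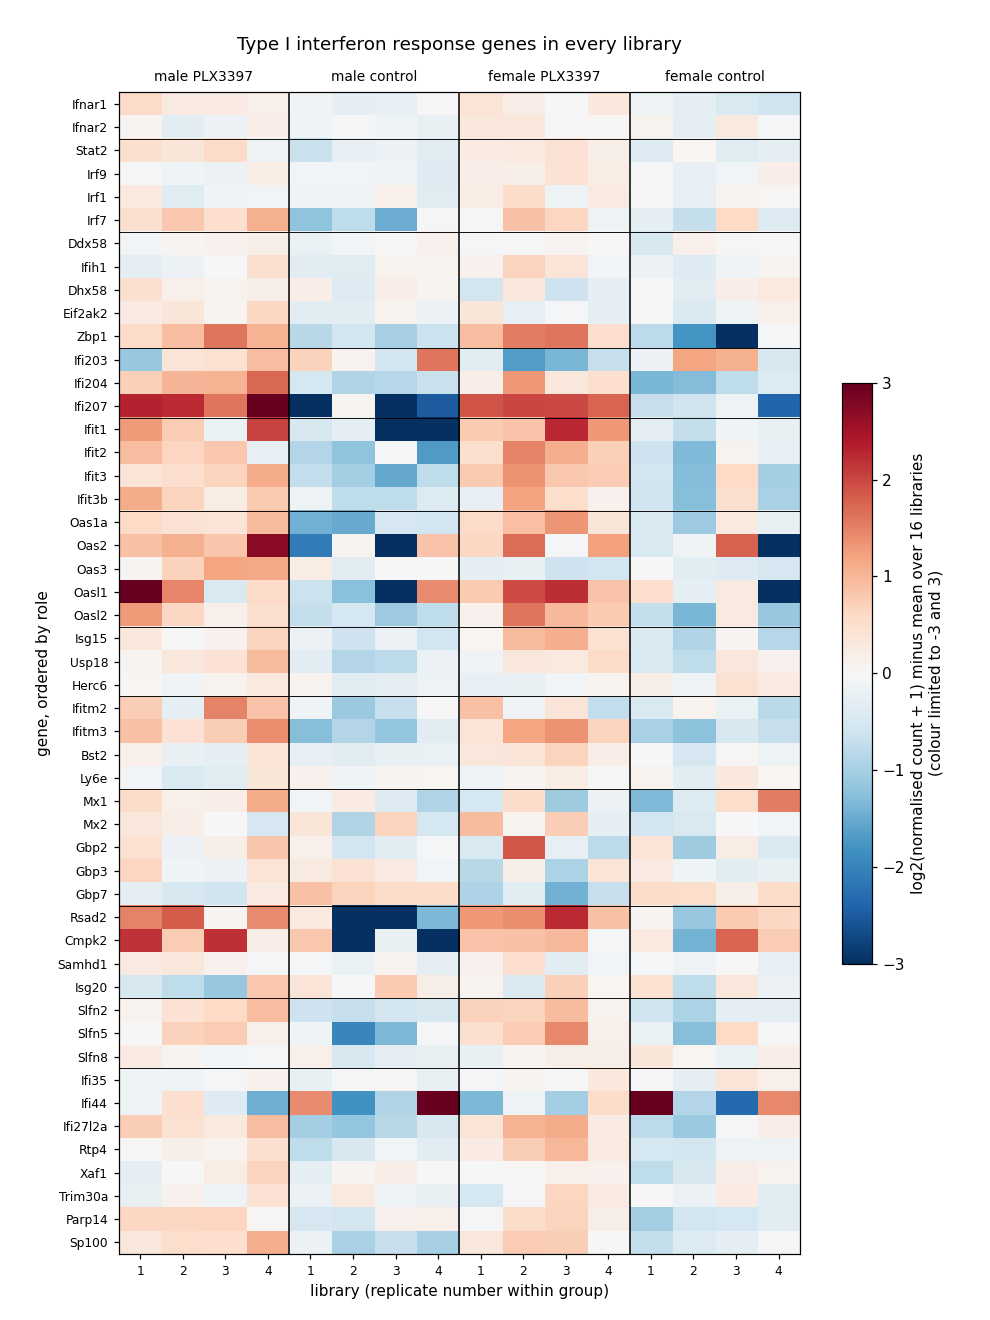
Each cell is a gene in a library, coloured by its log2(normalised count + 1) minus the gene's mean over 16 libraries, from blue (lower) to red (higher), with colours limited to 3 either way. Columns are the 4 groups of 4 libraries, and lines separate the roles. Most rows are redder in PLX3397 columns than in control columns of the same sex, and Gbp7 is the reverse.

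Most of the members that changed were higher on PLX3397. In males 20 of the 50 members rose, 1 fell, and 29 did not pass the test, a limma adjusted p under 0.05, where 11.7% of all 19594 genes tested were called. Over all genes, 4.16% rose and 7.52% fell in males. In females 15 members rose and 1 fell, and 34 did not pass, where 5.34% of all genes were called, 2.67% higher and 2.67% lower. The median log2 difference over the 50 members was 0.67 in males and 0.49 in females, against 0.02 and 0.00 over all genes tested. Values were above 0 for 44 members in males and 40 in females, against 10150 and 9721 of the 19594 genes tested. In 19 members every male PLX3397 library lay above every control, and in 18 the same held in females, against 7.71% and 5.13% of all genes. Gbp7 alone lay wholly below its controls, in both sexes, as did 9.84% of all genes in males and 5.26% in females. Members that rose in both sexes numbered 12, which is 60% of those that rose in males and 80% of those that rose in females, and Gbp7 fell in both. The same overlap was not counted over all genes, so whether it is particular to the members is not shown.

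The size of the count depended on single libraries, mostly in females. Without the 2 male libraries that stood apart, the male count of 21 became 15, of which 14 were higher. The female count of 16 was 9 without female PLX3397 replicate 2 or without replicate 3, and 10 without female control replicate 1. Scaling all libraries to equal totals gave 27 members in males, moved the median of all genes in males to 0.18 and gave 1348 genes higher and 917 lower over all genes, where the deposited scaling gave 815 higher and 1474 lower. Upper-quartile scaling gave 1032 higher and 1224 lower in males, and quantile normalisation 1040 and 1188. No member's call changed sign under any of the 28 alternatives. Calls of 12 members in males and of 7 in females held under all 28. With the 2 groups of a comparison fitted alone, the calls of Cmpk2, Rsad2 and Rtp4 were lost in males (adjusted p of 0.0501 to 0.128), and those of Bst2, Ifi27l2a, Ifit3, Isg15, Oas1a, Oasl2 and Sp100 in females (0.0501 to 0.114). Without a filter on low values, Cmpk2, Ifit3b and Rtp4 were lost in males (0.061 to 0.0872) and Bst2, Ifi27l2a, Oas1a and Sp100 in females (0.0524 to 0.0809). Among the other settings that kept all libraries, Cmpk2, Ifit3b and Rtp4 in males and Bst2, Parp14 and Sp100 in females lost a call under at least 1.

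**Figure D2:**
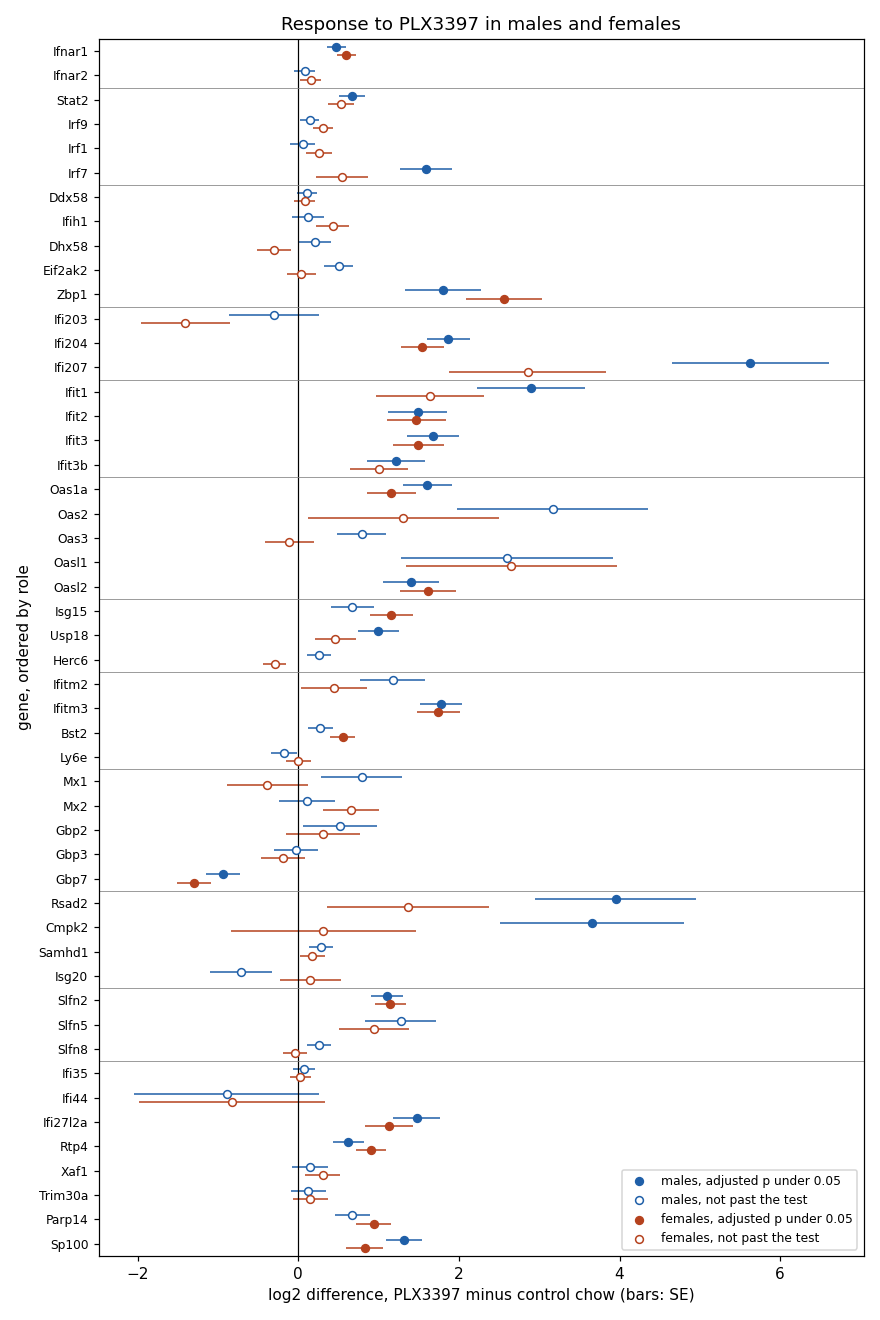
Points are log2 differences of PLX3397 minus control chow with SE bars for the 50 members, males in blue and females in red, filled where the adjusted p was under 0.05. Rows follow the roles of the genes. The filled points lie right of 0 except those of Gbp7, at -0.93 in males and -1.30 in females.

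Of the 2 receptor subunits, Ifnar1, the subunit that binds Tyk2, rose in both sexes, and Ifnar2, the subunit that binds Jak1, did not pass the test in either. Ifnar1 had normalised counts of 9262, 7470.2, 7454 and 6925 in males on PLX3397, against 5788, 5118, 5278 and 6147 in control males. In females it had 8261, 7187, 6207 and 7809 on PLX3397, against 5679, 5095, 4551 and 4139.8 on control chow. Every PLX3397 library lay above every control library of its sex. The log2 difference was 0.47 ± 0.12 in males (SE, adjusted p = 0.017) and 0.60 ± 0.12 in females (adjusted p = 0.00645). Without male PLX3397 replicate 1 the male call was lost at adjusted p = 0.0565, and without male control replicate 2 at 0.058. Ifnar2 had 13748, 10297, 11418 and 14725 in males on PLX3397, against 11724, 12496, 11879 and 11000.3 in control males. Its values in females were 16244, 16203, 12854 and 13198 on PLX3397, against 13917, 10487, 15778 and 12645 on control chow. Groups overlapped in both sexes, with log2 differences of 0.08 ± 0.13 in males (adjusted p = 0.78) and 0.15 ± 0.13 in females (adjusted p = 0.632). Whether the 2 subunits differ in response was not tested. The 2 genes lie on chromosome 16 with Il10rb, which encodes a receptor subunit for interferon-λ and interleukin-10, between them.

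Of the 4 transcription factors, Irf7 and Stat2 rose in males, and none passed the test in females. Irf7, the factor that amplifies interferon production and is itself interferon-induced, had 909, 1153, 923 and 1364 in males on PLX3397, against 284, 385, 233 and 628 in control males. It had 664, 1204, 1015 and 592 in females on PLX3397, against 546, 399, 983 and 502 in control females. The male groups did not overlap and the female groups did. Irf7 rose by 1.59 ± 0.32 in males (adjusted p = 0.00343), and the female difference was 0.54 ± 0.32 (adjusted p = 0.441). Stat2, the STAT protein best known from interferon receptors, had 3692, 3366, 3922 and 2361 in males on PLX3397, against 1665, 2215, 2336 and 2089 in control males. In females Stat2 had 3127, 3220.3, 3591 and 2966 on PLX3397, against 2009.6, 2732, 2056 and 2185 on control chow. Neither sex's groups overlapped, and Stat2 rose by 0.67 ± 0.16 in males (adjusted p = 0.00972), while the female difference of 0.53 ± 0.16 stayed outside the threshold (adjusted p = 0.0634). With the 2 male libraries that stood apart left out, the male Stat2 call was lost at adjusted p = 0.0684.

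Irf9, the DNA-binding partner of Stat2, had 3602, 3384, 3230.3 and 4289 in males on PLX3397, against 3464, 3469.8, 3397 and 2790.4 in control males. It had 4193, 4129, 4970.4 and 4293 in females on PLX3397, against 3519.6, 3083, 3450.1 and 4191 in control females. The groups overlapped in both sexes, with differences of 0.14 ± 0.12 in males and 0.31 ± 0.12 in females. Irf1, a factor shared with the type II interferon response, had 5741, 3663, 4367 and 4446 in males on PLX3397, against 4301, 4251, 5257 and 3665 in control males. Irf1 in females had 5539, 6903, 4216 and 5639 on PLX3397, against 4656, 3978, 5004 and 4814 on control chow. These groups also overlapped, and the differences of 0.05 ± 0.16 and 0.26 ± 0.16 did not pass the test.

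Among the RNA sensors and the kinase PKR, only Zbp1 passed the test, and it did so in both sexes. Zbp1, a sensor of left-handed nucleic acid that can start necroptosis, had 228, 292, 466 and 319 in males on PLX3397, against 85.4, 103, 76.5 and 97.2 in control males. In females it had 292, 451, 472 and 217 on PLX3397, against 89.1, 43.8, 17.8 and 147 on control chow. No library on drug overlapped with a control of its sex. Zbp1 rose by 1.80 ± 0.47 in males (adjusted p = 0.0198) and by 2.56 ± 0.47 in females (adjusted p = 0.00328). The male call was lost without male PLX3397 replicate 3 (adjusted p = 0.0662), without male control replicate 3 (0.0521), and without the 2 male libraries that stood apart (0.102). The RNA helicases Ddx58 (RIG-I), Ifih1 (MDA5) and Dhx58 (LGP2) and the kinase Eif2ak2 (PKR) overlapped between groups in both sexes, with differences of 0.11, 0.12, 0.20 and 0.51 in males and 0.08, 0.43, -0.30 and 0.04 in females. Ddx58 averaged 1964 ± 145 in males on PLX3397 and 1825 ± 175 in control males (SD, n = 4 each). Its spread within groups was among the smallest of the members.

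The PYHIN family, whose human relatives bind DNA in the nucleus and cytosol, had 3 members: Ifi204 rose in both sexes, Ifi207 rose in males, and Ifi203 did not pass the test in either sex. Ifi204 had 1052, 1317, 1327 and 2114 in males on PLX3397, against 447, 342, 356 and 402 in control males. It had 735, 1581, 814 and 918 in females on PLX3397, against 250.1, 259.9, 379.5 and 483 in control females. Neither pair of groups overlapped, and Ifi204 rose by 1.87 ± 0.27 in males (adjusted p = 0.000192) and by 1.54 ± 0.27 in females (adjusted p = 0.00192). Ifi207 averaged 674 ± 330 in males on PLX3397 and 39.4 ± 60.5 in control males, with 1 control library at 0, and rose by 5.63 ± 0.98 (adjusted p = 0.000972), a size that depends on the 1 added before the logarithm. In females it averaged 458 ± 35.6 on PLX3397 and 71.6 ± 36.1 on control chow, groups that did not overlap either, and the difference of 2.86 ± 0.98 did not pass the test (adjusted p = 0.115). Ifi203 overlapped in both sexes, at -0.30 ± 0.56 in males and -1.41 ± 0.56 in females (adjusted p = 0.802 and 0.189). These genes are close relatives that lie near each other on chromosome 1, and how reads were split between them by the authors' counting is uncertain.

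All 4 members of the IFIT family, RNA-binding proteins that block translation of viral RNA, rose in males, and Ifit2 and Ifit3 rose in females. Ifit2 had 1021, 831, 931 and 453 in males on PLX3397, against 291, 231, 517 and 165 in control males. In females Ifit2 had 742, 1505, 1139.7 and 879 on PLX3397, against 345, 213, 574 and 448 on control chow. The male groups overlapped by a single library on each side, and the female groups did not overlap. Ifit2 rose by 1.49 ± 0.37 in males (adjusted p = 0.0133) and by 1.47 ± 0.37 in females (adjusted p = 0.0251). Ifit3 had 1402, 1521, 1702 and 2294 in males on PLX3397, against 642, 526, 368 and 634 in control males. It had 1832, 2716, 1861 and 1803 in females on PLX3397, against 712, 431, 1619 and 530.3 in control females. Drug and control did not overlap in either sex, and Ifit3 rose by 1.68 ± 0.32 in males (adjusted p = 0.00219) and by 1.50 ± 0.32 in females (adjusted p = 0.00964). Ifit1 rose by 2.90 ± 0.67 in males (adjusted p = 0.0087), and its female difference of 1.64 ± 0.67 did not pass (adjusted p = 0.209) although the groups did not overlap. Ifit3b rose by 1.22 ± 0.36 in males (adjusted p = 0.0367) and had a female difference of 1.00 ± 0.36 (adjusted p = 0.14).

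Leaving out libraries bore on Ifit2 and Ifit3b. The female call of Ifit2 was lost without female PLX3397 replicate 2 or 3 or female control replicate 1 or 2, at adjusted p of 0.0604 to 0.0865, and its male call was lost without the 2 male libraries that stood apart (0.112). Ifit3b lost its male call without male PLX3397 replicate 1, 2 or 4 or male control replicate 2, 3 or 4, at 0.0612 to 0.0988. The 4 genes lie in a cluster on chromosome 19, and Ifit3 and Ifit3b are near-identical copies, so the split of reads between them is uncertain.

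**Figure D3:**
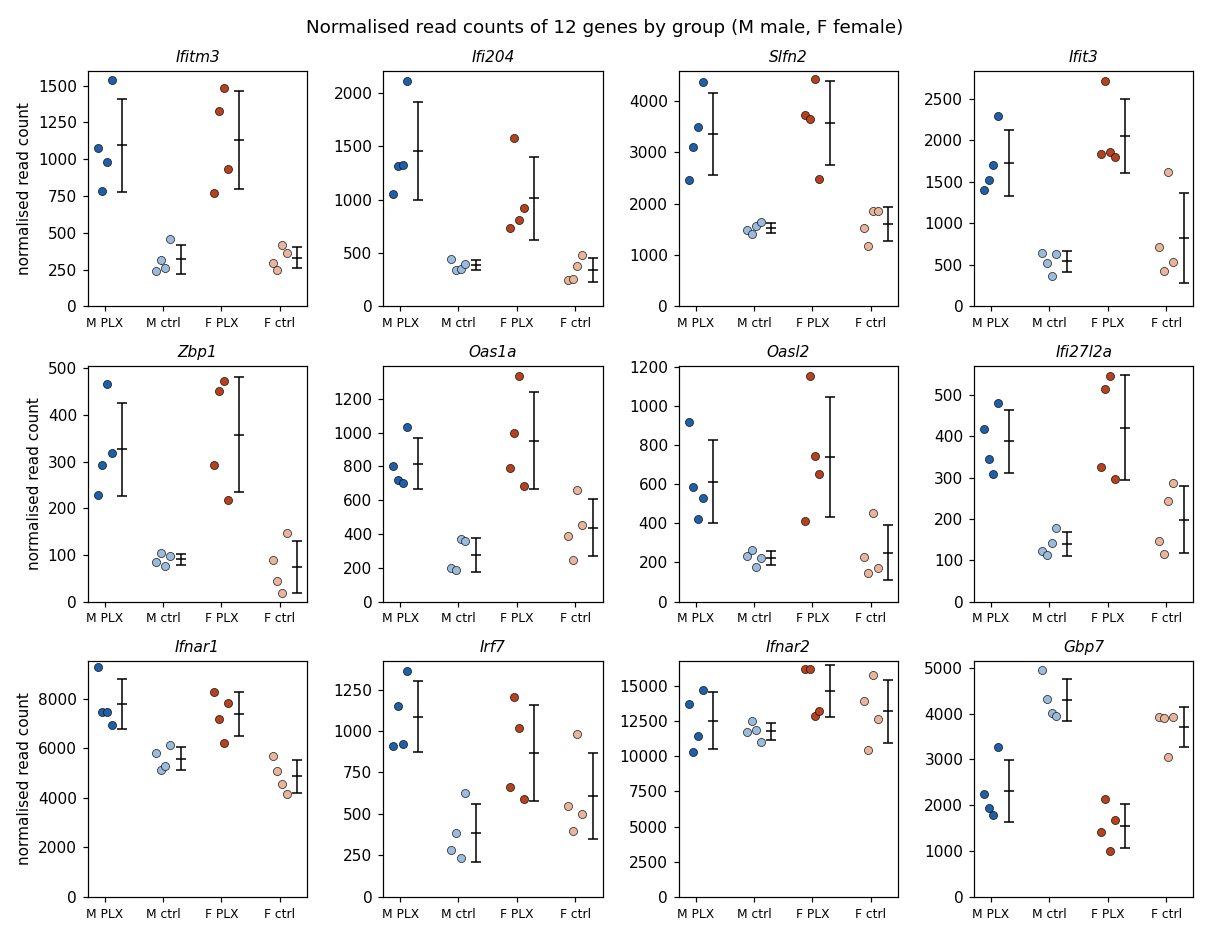
Dots are normalised read counts of 12 genes in each library, with the group mean and SD beside them, for males on PLX3397 (M PLX), control males (M ctrl), females on PLX3397 (F PLX) and control females (F ctrl). Ifitm3, Ifi204, Slfn2 and Zbp1 show no overlap of drug and control in either sex, Irf7 overlaps in females, Ifnar2 overlaps in both sexes, and Gbp7 is lower on drug.

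In the OAS family, some of whose members make the oligonucleotide that activates RNase L, Oas1a and Oasl2 rose in both sexes. Oas1a had 804, 721, 704 and 1034 in males on PLX3397, against 197, 186, 374 and 356 in control males. In females it had 792, 999.5, 1337 and 686 on PLX3397, against 391, 249, 658 and 455 on control chow. The lowest female library on drug, at 686, lay just above the highest control at 658. Oas1a rose by 1.61 ± 0.30 in males (adjusted p = 0.002) and by 1.16 ± 0.30 in females (adjusted p = 0.0331). Oasl2 had 916, 584, 421 and 531 in males on PLX3397, against 231, 262, 177 and 222 in control males. Its female values were 412, 1151, 741 and 654 on PLX3397, against 229, 145, 453 and 172 on control chow, with an overlap at 412 and 453. Oasl2 rose by 1.41 ± 0.35 in males (adjusted p = 0.0139) and by 1.61 ± 0.35 in females (adjusted p = 0.0101). The female call of Oas1a was lost without any of 6 libraries (female PLX3397 replicates 1, 2 and 3 and female control replicates 1, 2 and 4), at adjusted p of 0.0535 to 0.103.

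Oas2, Oasl1 and Oas3 did not pass the test against control chow in either sex. Oas2 and Oasl1 were among the most variable members, with values of 0 in male control replicate 3 and differences of 3.17 ± 1.19 and 2.60 ± 1.32 in males. Oas3 had 40.7, 62.3, 88 and 85.2 in males on PLX3397, against 45.3, 30.2, 39 and 38.1 in control males. It had 31.3, 32.7, 24.8 and 25.5 in females on PLX3397, against 38.2, 30.1, 29 and 26.7 in control females. These groups overlapped, and the differences were 0.79 ± 0.31 in males and -0.11 ± 0.31 in females (adjusted p = 0.117 and 0.916). Oas1a also has closely related neighbours on chromosome 5, and reads shared with them could be split either way.

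The ISG15 system attaches the ubiquitin-like protein Isg15 to other proteins and removes it. Usp18, the protease that removes Isg15 and also blocks the receptor at Ifnar2, had 588, 702, 752 and 1072 in males on PLX3397, against 437, 302, 322 and 490.3 in control males. In females Usp18 had 517, 704, 675 and 820.0 on PLX3397, against 404, 328, 704 and 606 on control chow. The male groups did not overlap and the female groups did. Usp18 rose by 1.00 ± 0.26 in males (adjusted p = 0.0169), and the female difference of 0.46 ± 0.26 did not pass (adjusted p = 0.402). Isg15 itself rose by 1.16 ± 0.27 in females (adjusted p = 0.0159), with means of 369 ± 114 on PLX3397 and 165 ± 56 on control chow. The male difference of 0.67 ± 0.27 did not pass (adjusted p = 0.131), although those groups did not overlap. Herc6, the mouse ligase that attaches Isg15, had differences of 0.26 ± 0.15 in males and -0.30 ± 0.15 in females, neither past the test. The male call of Usp18 was lost without male PLX3397 replicate 4 or male control replicate 2 or 3 (adjusted p of 0.0521 to 0.0594), and the female call of Isg15 without female PLX3397 replicate 2 or 3 or female control replicate 2 or 4 (0.0529 to 0.0573).

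Of the 4 membrane restriction factors, which act where a virus enters or leaves the cell, Ifitm3 rose in both sexes. Ifitm3 had 1073, 783, 982 and 1534 in males on PLX3397, against 241, 315, 259.7 and 461 in control males. It had 769, 1328, 1486 and 933 in females on PLX3397, against 296, 249, 415 and 363 in control females. All libraries on drug lay above all controls, and Ifitm3 rose by 1.78 ± 0.27 in males (adjusted p = 0.000269) and by 1.74 ± 0.27 in females (adjusted p = 0.000674). Both calls held under all 28 alternatives. Bst2 (tetherin), which holds budding virus at the membrane, rose by 0.55 ± 0.16 in females (adjusted p = 0.0486), and that call was lost in 12 of the 16 fits that each left out 1 library, at 0.0515 to 0.139. In males its difference was 0.27 ± 0.16. Ifitm2 averaged 165 ± 76.1 in males on PLX3397 and 69.4 ± 23.8 in control males, and did not pass in either sex. Ly6e, the member with the highest level, had differences of -0.18 ± 0.16 in males and -0.00 ± 0.16 in females, and its groups overlapped.

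Gbp7, a guanylate-binding GTPase, was the member that fell, and it fell in both sexes. It had 2250.2, 1945, 1781 and 3276 in males on PLX3397, against 4951, 4313, 4006 and 3958 in control males. In females it had 1413, 2143, 991 and 1667 on PLX3397, against 3938, 3907, 3046 and 3926 on control chow. No library on drug reached the lowest control of its sex. The log2 difference was -0.93 ± 0.21 in males (adjusted p = 0.00765) and -1.30 ± 0.21 in females (adjusted p = 0.00115), and both calls held under all 28 alternatives. Its neighbours on chromosome 3 did not pass the test: Gbp3 had differences of -0.03 ± 0.28 in males and -0.19 ± 0.28 in females, and Gbp2 had 0.52 ± 0.46 and 0.31 ± 0.46. Guanylate-binding proteins are a family of close copies, so the split of reads between them is uncertain. Mx1 and Mx2, dynamin-like GTPases, overlapped between groups in both sexes. Mx1 averaged 151 ± 50.1 in males on PLX3397 and 87.3 ± 28.2 in control males, and C57BL/6 mice are known to carry a deletion in this gene.

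Among enzymes that act on nucleotides and nucleic acids, Rsad2 and Cmpk2 rose in males. Rsad2 (viperin), which makes a chain-terminating nucleotide, had 282, 352, 104 and 266 in males on PLX3397, against 122, 9.15, 0 and 38.4 in control males. In females it had 247, 263, 473 and 184 on PLX3397, against 106, 44.8, 172 and 153 on control chow. The male groups overlapped and the female groups did not, yet the test was passed in males, at 3.95 ± 1.01 (adjusted p = 0.0161), and not in females, at 1.37 ± 1.01 (adjusted p = 0.556). The male size depends on the control libraries at 0 and 9.15 and on the 1 added before the logarithm. Fitted to the male groups alone, Rsad2 was no longer called (adjusted p = 0.0729). Cmpk2, a mitochondrial nucleotide kinase that lies beside Rsad2 on chromosome 12, averaged 259 ± 159 in males on PLX3397 and 58.3 ± 70.9 in control males. It rose by 3.66 ± 1.15 in males (adjusted p = 0.0495), a call lost in 12 of the 16 fits that left out 1 library (0.0519 to 0.131), and had a female difference of 0.31 ± 1.15. Samhd1, which degrades deoxynucleotides, and Isg20, an RNA exonuclease, did not pass, at 0.28 ± 0.15 and -0.71 ± 0.38 in males and 0.17 ± 0.15 and 0.15 ± 0.38 in females.

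In the Schlafen family, Slfn2 rose in both sexes. Slfn2, needed in mice to keep T cells and monocytes quiescent, had 2449, 3099, 3481 and 4362 in males on PLX3397, against 1482, 1414, 1562 and 1648 in control males. It had 3724, 3652, 4417 and 2469 in females on PLX3397, against 1518, 1178, 1855 and 1863 in control females. The lowest library on drug exceeded the highest control in each sex. Slfn2 rose by 1.10 ± 0.20 in males (adjusted p = 0.00123) and by 1.15 ± 0.20 in females (adjusted p = 0.00175), and both calls held under all 28 alternatives. Its neighbours on chromosome 11 did not pass the test: Slfn5 had 1.27 ± 0.44 in males and 0.94 ± 0.44 in females (adjusted p = 0.0754 and 0.286), and Slfn8 had 0.26 ± 0.15 and -0.04 ± 0.15. Close copies in this cluster make the split of reads uncertain here too.

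The other induced genes held 3 more members that rose in both sexes. Ifi27l2a, a small membrane protein, had 418, 344, 309 and 481 in males on PLX3397, against 123, 113, 141 and 179 in control males. In females Ifi27l2a had 326, 515, 547 and 298 on PLX3397, against 146, 116, 243 and 288 on control chow. Groups did not overlap, though in females 298 and 288 lay close, and the rises were 1.47 ± 0.29 in males (adjusted p = 0.00302) and 1.13 ± 0.29 in females (adjusted p = 0.0321). Rtp4, a receptor chaperone that in mice restrains the interferon response, had 1198, 1305, 1249.9 and 1631 in males on PLX3397, against 682, 826, 1099 and 918 in control males. Its values in females were 1369, 1929, 2311 and 1409 on PLX3397, against 802, 796, 1046 and 1041 on control chow. Again no groups overlapped, and Rtp4 rose by 0.62 ± 0.19 in males (adjusted p = 0.0444) and by 0.91 ± 0.19 in females (adjusted p = 0.00833). Sp100, a nuclear body protein, had 1278, 1463, 1438 and 2149 in males on PLX3397, against 894, 517, 631 and 508 in control males. It had 1294, 1712, 1700.0 and 1011 in females on PLX3397, against 613, 762, 844 and 979 in control females. Both sexes were without overlap, at rises of 1.32 ± 0.23 in males (adjusted p = 0.000905) and 0.82 ± 0.23 in females (adjusted p = 0.0434).

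Several of these calls were lost when 1 library was left out. The female call of Ifi27l2a was lost without female PLX3397 replicate 2 or 3 or female control replicate 1 or 2 (adjusted p up to 0.1003). Rtp4 lost its male call in 10 of 16 fits that left out 1 library (0.0506 to 0.143), and Sp100 lost its female call in 9 of 16 (0.0549 to 0.136). For both genes, some of the libraries left out were of the other sex. Parp14, an ADP-ribosyltransferase, rose by 0.94 ± 0.22 in females (adjusted p = 0.0159) and had 0.67 ± 0.22 in males (adjusted p = 0.0588), where its groups overlapped. Its female call was lost without female PLX3397 replicate 2 or 3 or female control replicate 1 (0.0522 to 0.0597). Ifi35, Ifi44, Xaf1 and Trim30a overlapped between groups in both sexes, and Ifi44, at 8.74 ± 4.94 in males on PLX3397 and 38.6 ± 54.5 in control males, was close to the filter. Over the 26 members called in neither sex, log2 differences ran from -0.89 to 3.17 in males and from -1.41 to 2.65 in females.

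The responses of the sexes were compared directly, as the female difference minus the male difference. No member passed this test in limma, and no gene of the 19594 did (0% of all genes). At an unadjusted p under 0.05 there were 2 members, Irf7 at -1.05 ± 0.46 (adjusted p = 0.438) and Herc6 at -0.55 ± 0.21 (adjusted p = 0.372), where 10.3% of all genes reached that level. The member values ran from -3.35 for Cmpk2 to 0.86 for Isg20, with a median of -0.15 and 19 of 50 above 0. The genes called in males and not in females, Cmpk2, Ifi207, Ifit1, Ifit3b, Irf7, Rsad2, Stat2 and Usp18, are therefore not shown to differ between the sexes, nor are Bst2, Isg15 and Parp14, called in females and not in males. The median SE of this difference over all genes was 0.413, against 0.292 for a comparison of 2 groups.

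Sex differences at fixed chow were few. On control chow no member passed the test, where 0.0663% of all genes did, and 7 members reached an unadjusted p under 0.05, each higher in females, where 5.19% of all genes reached it. They were Rsad2, Ifi207, Ifit1, Herc6, Cmpk2, Irf7 and Oas1a, with the largest difference at 2.84 ± 1.01 for Rsad2 (adjusted p = 0.921). The sizes for Rsad2, Ifi207 and Cmpk2 depend on control male libraries at 0 and on the 1 added before the logarithm. In Gbp7 every control female lay below every control male, at means of 3704 ± 439 in females and 4307 ± 457 in males, as did 1.8% of all genes. Of the 11 neutrophil markers, 5 (45.5%) were called lower in control females than in control males, against 0.051% of all genes. Their part in the member differences on control chow was not tested. On PLX3397 chow 1 member, Oas3, was lower in females than in males, at 28.6 ± 3.99 in females and 69.0 ± 22.1 in males and without overlap, while 5.43% of all genes were called and 1.15% were called lower in females. The balance of calls over all genes in this comparison turned with the scaling, at 838 higher and 226 lower as deposited, 246 and 221 with quantile normalisation, 265 and 341 with upper-quartile scaling, 195 and 375 with equal totals, and 26 and 18 with the 2 groups fitted alone. Groups without overlap and lower in females were 5.36% of all genes. The difference was -1.19 ± 0.31 (adjusted p = 0.0359). It was called in 15 of the 27 alternatives in which Oas3 was tested, and was lost without male PLX3397 replicate 2, 3 or 4 or any female PLX3397 library, at 0.0521 to 0.107. On this chow the neutrophil markers were also lower in females, 8 of 11 past the test, and 9 of 10 microglia markers were higher, and their part in the Oas3 difference was not tested.

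Further genes of the pathway were taken from 7 lists. They lie outside the 50 members except for Samhd1, which is counted again among the genes upstream of interferon. Of 18 genes for type I interferons, 4 were above 0 in any library and none passed the filter. Ifnb1 reached at most 26.7, in male control replicate 4, and was 0 in all control females. Jak1, Tyk2 and Stat3 did not pass the test in either sex. Of 8 negative regulators of the receptor, 2 fell in males (25%), against 7.52% of all genes, and none passed the test in females. Both were phosphatases, Ptpn6 at a fall of 0.45 ± 0.10 (adjusted p = 0.00489) and Ptpn1 at 0.39 ± 0.12 (adjusted p = 0.0436). The list medians were -0.23 in males and -0.05 in females.

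Most genes listed upstream of interferon, which sense or process nucleic acid or take part in switching on interferon genes, did not pass the test. Of 20 genes, 1 rose (5%) and 5 fell (25%) in males, against 4.16% and 7.52% of all genes, and 14 did not pass. In females 1 fell (5%), against 2.67% of all genes, and 19 did not pass. The list medians were -0.04 in males and 0.06 in females, with 9 and 12 of the 20 above 0. Sting1, the adaptor of cytosolic DNA sensing, had 12532, 10160.1, 10839.5 and 15926 in males on PLX3397, against 32655, 30865, 31691 and 31674 in control males. In females it had 13375, 16096, 19010.4 and 18671 on PLX3397, against 31536, 25701, 35813 and 29477 on control chow. Sting1 fell without overlap in both sexes, at -1.38 ± 0.14 in males (adjusted p = 5.79e-06) and -0.87 ± 0.14 in females (adjusted p = 0.000909). In males Myd88, an adaptor of Toll-like receptors, fell by 0.80 ± 0.12 (adjusted p = 0.000276), the endosomal RNA receptor Tlr3 by 1.18 ± 0.23 (adjusted p = 0.00253), and Unc93b1, which carries such receptors to endosomes, by 0.32 ± 0.07 (adjusted p = 0.00482). The other 2 called in males were Irf5, which fell, and the kinase Ikbke, which rose by 4.77 ± 1.23 (adjusted p = 0.017), both named after their values were seen. Ikbke had 365, 299, 573 and 576 in males on PLX3397, against 127, 4.73, 1.19 and 39.6 in control males. The size of its rise depends on the control libraries at 4.73 and 1.19 and on the 1 added before the logarithm.

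**Figure D4:**
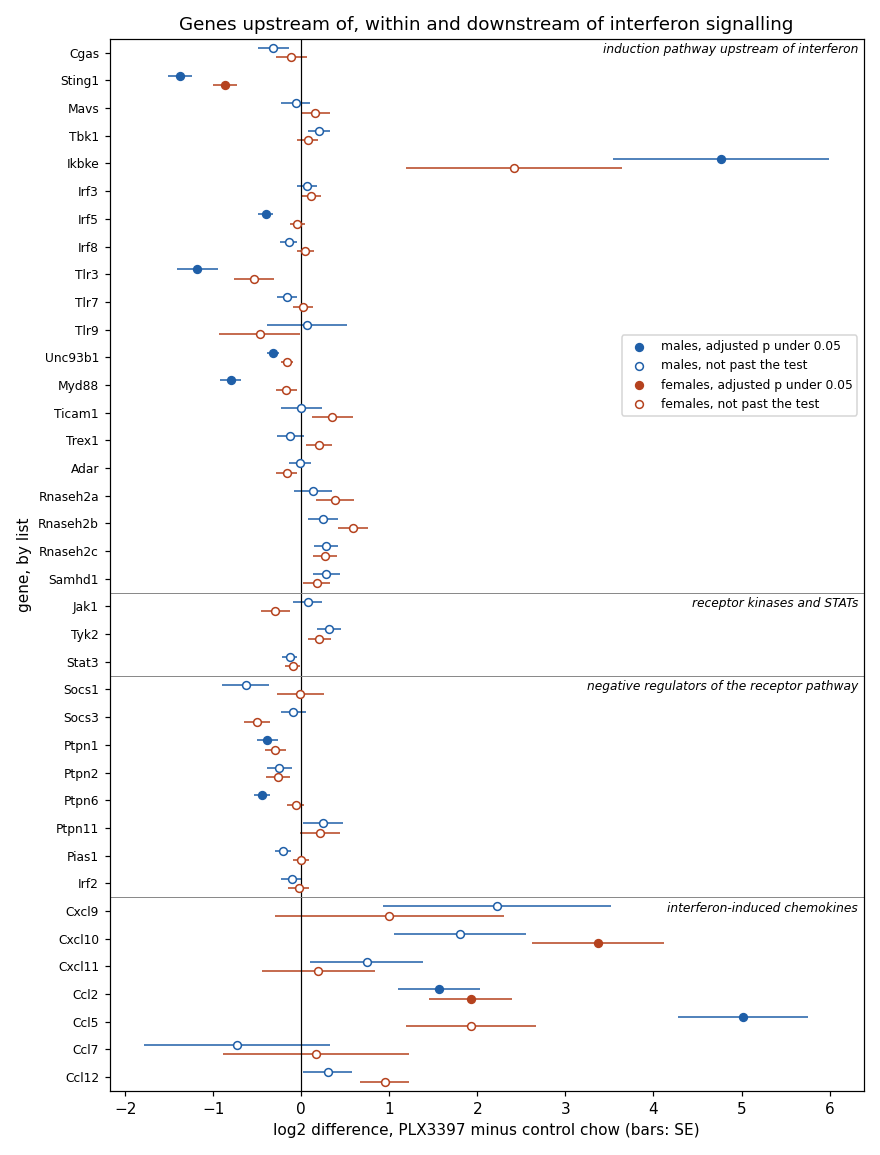
Points are log2 differences of PLX3397 minus control chow with SE bars for genes upstream of interferon, receptor kinases and STATs, negative regulators and interferon-induced chemokines, males in blue and females in red, filled where the adjusted p was under 0.05. Sting1 lies left of 0 in both sexes, and the filled chemokines lie right of 0.

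Interferon-induced genes outside the members were called more often higher than lower. Of 58 tested, 8 rose (13.8%) and 4 fell (6.9%) in males, against 4.16% and 7.52% of all genes, and 6 rose (10.3%) and 1 fell (1.72%) in females, against 2.67% each of all genes. The shares that fell, from 4 genes in males and 1 in females, were near those over all genes. The list medians were 0.21 in males and 0.17 in females. In males the immunity-related GTPase Irgm2 fell by 0.95 ± 0.13 (adjusted p = 0.000117) and Lgals9 by 0.95 ± 0.16 (adjusted p = 0.000699), while the deaminase Apobec3 rose by 0.64 ± 0.10 (adjusted p = 0.000329) and Lgals3bp by 1.21 ± 0.19 (adjusted p = 0.000445). In females Tor3a rose by 0.61 ± 0.11 (adjusted p = 0.00303), Lgals3bp by 0.97 ± 0.19 (adjusted p = 0.00545), Phf11b by 1.12 ± 0.22 (adjusted p = 0.00591) and the lysosomal thiol reductase Ifi30 by 0.79 ± 0.17 (adjusted p = 0.0103). Of 7 chemokines, 2 rose in each sex (28.6%), against 4.16% of all genes in males and 2.67% in females. In males these were Ccl5, by 5.02 ± 0.73 (adjusted p = 0.000226), and Ccl2, by 1.56 ± 0.47 (adjusted p = 0.0402). In females they were Cxcl10, by 3.37 ± 0.75 (adjusted p = 0.0124), and Ccl2, by 1.92 ± 0.47 (adjusted p = 0.0217). Ccl5 attracts T cells, Ccl2 monocytes, and Cxcl10 activated T cells. Of the 4 type II and III interferon genes tested, 1 fell in males (25%), against 7.52% of all genes, and 1 rose in females (25%), against 2.67%. Ifngr1, a subunit of the interferon-γ receptor, fell in males by 0.54 ± 0.11 (adjusted p = 0.00339), and Il10rb rose in females by 0.56 ± 0.11 (adjusted p = 0.00433).

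Levels of the members differed widely when divided by gene length. The mean normalised count per kilobase of exon was highest in Ly6e, Ifnar2 and Bst2, at 4764, 3769 and 4225 in males on PLX3397 and 5261, 3537 and 3431 in control males. The lowest were Ifi44, at 1.43, in males on PLX3397 and Oas3, at 5.40, in control males. The median over the 50 members was 265 in males on PLX3397 and 151 in control males, and 248 in females on PLX3397 and 167 in control females. Members with the largest log2 spread within groups were Oasl1 at 2.13, Oas2 at 1.92, Cmpk2 at 1.86, Ifi44 at 1.79 and Rsad2 at 1.63, and the smallest were Irf9 at 0.16, Ddx58 at 0.17 and Ifnar1 at 0.17. A change of the size seen in Ifnar1 could therefore not be told from replicate spread in the most variable members.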

How the data were processed

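Per the labels' protocols, total RNA of sorted cortical microglia was amplified with a SMARTer low-input kit and made into Nextera XT libraries. The authors deposited a table of signal, normalised read counts per gene, whose formula is not given in the sources used here. Per the submitters' processing notes, the build was GRCm39, and the tools were Salmon 1.5.2, featureCounts 2.0.1, Subread, STAR 2.7.9a and bcl2fastq 2.19.1, listed without roles. Low values lie near multiples of a step that differs slightly by gene, so whole reads were not recovered and no count model was fitted.

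The 19594 genes that reached 10 in 4 or more of the 16 libraries were fitted in R 4.3.3 by limma 3.58.1 on the log2 scale after adding 1, with 4 group means and a trend on intensity. Tests were two-sided, and adjusted p-values are Benjamini-Hochberg over all genes tested, with 0.05 as the threshold for each of 5 comparisons. The fitting code was tested on simulated data in which few genes were changed, all in males on PLX3397. It called 10.9%, 36.4% and 65.1% of changes by factors of 1.5, 2 and 4 in males. For the difference of responses it called 3.12%, 19.7% and 42.9%. A gene that did not pass may therefore still have changed. Adding 1 shrinks log2 differences of low genes, while libraries at or near 0 can enlarge them, as for Ifi207, Rsad2 and Cmpk2 in males. Symbols of 51029 of 53850 identifiers came from a table for GRCm38, and promoters from RefSeq on GRCm38.p6, for 39 members. Mnda and Pyhin1 of the wider lists were not matched. A gene of the wider lists is not reported here.

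The members and lists were chosen with earlier results of these data known. Values in every library are given for the receptors, the transcription factors, members called in both sexes or in a comparison of the sexes, and, in a role group with none, the member with the smallest p in males. Up to 4 called genes with the smallest p are named from each pathway list. The 28 alternatives covered the pseudocount, filter, scaling, weights, fitted groups, replicate block and libraries left out. Among single genes, only the members were followed under them.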

Additional observations from a re-analysis of the deposited data

Results flagged for a closer look

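In 8 of 200 gene-and-group sets, the highest or lowest of 4 libraries lay apart from the other 3 by a gap that, as a share of the group's range, was over Dixon's 95% critical value. Chance alone flags about 1 in 20 groups. Among males on PLX3397, replicate 4 was high for Oas2 at 428 (others 116 to 136) and low for Parp14 at 1633 (others 2452 to 2491). Among females on PLX3397, replicate 2 was high for Ifit3 at 2716 (others 1803 to 1861), and replicate 4 was low for Cmpk2 at 82.5 (others 156 to 170.1). Among control males, replicate 4 was low for Irf9 at 2790.4 (others 3397 to 3469.8), and replicate 2 was high for Trim30a at 2782 (others 1949 to 2046). Among control females, replicate 3 was low for Gbp7 at 3046 (others 3907 to 3938), and replicate 4 was at 0 for Oasl1 (others 30.1 to 53.8).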

How the results depend on the processing

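The counts of called members with 1 library left out ran from 16 to 21 in males, against 21 with all, from 9 to 17 in females, against 16, and from 0 to 1 for females minus males on PLX3397, against 1. On PLX3397 chow that member count was 0 with a minimum of 50, without a filter, with quantile normalisation, with the 2 groups fitted alone, with the replicate block and without both male libraries that stood apart (male control replicate 4, male PLX3397 replicate 3), and 2 with equal library totals. Over all genes, females minus males on PLX3397 gave 1064 calls, and 669 without a filter, 606 with upper-quartile scaling, 570 with equal totals, 467 with quantile normalisation, 44 with the 2 groups alone, 345 without both libraries, and 332 to 1242 with 1 left out. In males all genes called numbered 2289, and 1518 without both libraries. The difference of responses gave 0 genes, and 1 with a pseudocount of 5, 2 without both libraries and 0 to 6 with 1 left out, none of them a member. Females minus males on control chow gave 13 genes, 8 with voom weights and 11 to 20 with 1 left out. For the 52 single-member results called with the deposited values or under some alternative, 124 of 1454 values under alternatives lost and 34 gained the threshold, and none reversed. Of the 198 member results never called, 80 changed sign under an alternative. With the replicate block, 19 members rose and 1 fell in males, and 13 rose and 1 fell in females. Over all genes tested, libraries of the same number showed little shared deviation (24 pairs, correlations of -0.04 to 0.12, 1 over 0.1). A pairing that acts weakly or on few genes would not be seen this way, so whether the numbers pair the samples is not known. Intervals from counting error were not computed.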

Other observations

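Libraries of a group differed in how they ranked over the 50 members. Male PLX3397 replicate 4 was the highest of its group for 30 members, and in the same group replicate 3 was the lowest for 17 and replicate 1 for 15. Among females on PLX3397, replicate 3 was the highest for 21 members and replicate 2 for 17. Female control replicate 3 was the highest of its group for 26 members, and female control replicate 2 the lowest for 28. Male control replicate 3 had the most estimated reads, at about 77700000, and was at 0 for Ifi207, Oas2, Oasl1 and Rsad2.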
